A study of Mus musculus with 4 samples.

Results

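The 10 genes described here encode cytokine receptor chains of lymphocytes, a pair of cytokines that sustain lymphocytes and a secreted blocker of IL-18. They were chosen by symbol, as Il2rg, Il2rb, Il7r, Il15ra, Il21r, Il10ra, Il12rb1, Il15, Il7 and Il18bp, and all 10 were among the 16218 genes of the deposited count table. RNA was sequenced from thyroids of NOD.H-2h4 mice, which readily develop autoimmune thyroiditis, after injections 3 times a week for 2 weeks. The IgG group received isotype control IgG and the anti-PD-L1 group a monoclonal antibody against PD-L1, a ligand that restrains T cells through the receptor PD-1, with 2 libraries per group. The labels give neither age nor sex, and they give each library a batch string of its own (clone LTF2 and LTF3 for IgG, 10F.9G2 and 10F.9G3 for anti-PD-L1), so batch and library cannot be told apart. The strings read as antibody clone names with a number that goes up by 1, and the labels do not say whether they stand for a batch, a clone or something else. The series asked which thyroid genes differ once PD-L1 is blocked.

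As background, the common gamma chain, encoded by Il2rg, is shared by the receptors for IL-2, IL-4, IL-7, IL-9, IL-15 and IL-21, and its loss leaves an animal with few T and NK cells. It pairs with a chain that gives each receptor its specificity and signals through the kinases JAK1 and JAK3 to STAT proteins. IL-7 from stromal and epithelial cells keeps naive and memory T cells alive, and IL-15, held on the surface of a neighbouring cell by IL-15 receptor alpha, does so for NK cells and memory CD8 T cells. IL-12 and IL-18 act together on T and NK cells to bring about interferon gamma release, and IL-18 binding protein, itself an interferon-inducible product, ties up IL-18.

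Total counts per library lay between 75591923 and 79663374.5, so that 3 counts corresponded to 0.0370 to 0.0408 CPM (counts scaled to library size), well under the lowest value of any of the 10 genes, 0.875 CPM. Intervals and floors of this kind cover counting error only. Thyroglobulin, Tg, took 14.6% to 16.9% of counts in 3 libraries and 4.34% in anti-PD-L1 replicate 1. That library also had 1.40 CPM of Xist, the RNA of the inactive X chromosome, against 67.7 to 72.7 CPM elsewhere, and 62.6 CPM of the Y-linked Ddx3y against 0.350 to 0.790 CPM. By Xist and Ddx3y this library reads as male and the other 3 as female, so sex differs within the anti-PD-L1 group. It therefore stood apart from the other 3 in these genes. Without it, the log2 fold changes of the 10 genes were 1.78 for Il2rg, 3.21 for Il2rb, 1.76 for Il7r, 0.31 for Il15ra, 1.81 for Il21r, 2.21 for Il10ra, 1.96 for Il12rb1, 1.04 for Il15, 0.67 for Il7 and 2.22 for Il18bp, with a median of 1.79, and these can be set beside the values from all 4 libraries given below.

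Promoter sequence is shown for those of the 10 genes whose start sites were found, so that the start regions can be compared. RefSeq start sites on GRCm38.p6 were found for 5 of the 10 genes, namely Il2rg, Il7r, Il15ra, Il21r and Il18bp. From the 250 bases before each start, only the stretch outside every GENCODE exon is printed, 5′ to 3′ on the gene's strand, in lower case with motif matches in capitals. These stretches are chrX:101268256-101268505 (minus strand) for Il2rg, chr15:9529877-9530040 (minus strand, in an intron of a non-coding Il7r transcript) for Il7r, chr7:125603179-125603428 (plus strand) for Il21r and chr2:11705043-11705289 (plus strand) for the first of the Il15ra start sites.
Il2rg: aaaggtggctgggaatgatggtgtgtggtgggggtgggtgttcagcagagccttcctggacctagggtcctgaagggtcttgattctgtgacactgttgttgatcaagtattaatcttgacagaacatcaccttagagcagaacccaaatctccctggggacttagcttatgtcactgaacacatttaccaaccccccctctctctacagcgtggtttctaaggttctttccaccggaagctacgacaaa
Il7r: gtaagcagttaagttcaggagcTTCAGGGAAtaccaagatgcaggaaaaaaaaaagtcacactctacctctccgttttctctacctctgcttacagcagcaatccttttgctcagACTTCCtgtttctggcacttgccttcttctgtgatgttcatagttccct
Il21r: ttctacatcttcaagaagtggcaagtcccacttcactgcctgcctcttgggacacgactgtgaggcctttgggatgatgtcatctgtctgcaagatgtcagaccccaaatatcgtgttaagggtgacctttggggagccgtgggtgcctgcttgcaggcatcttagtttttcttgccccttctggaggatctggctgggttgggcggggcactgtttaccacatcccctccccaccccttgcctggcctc
Il15ra: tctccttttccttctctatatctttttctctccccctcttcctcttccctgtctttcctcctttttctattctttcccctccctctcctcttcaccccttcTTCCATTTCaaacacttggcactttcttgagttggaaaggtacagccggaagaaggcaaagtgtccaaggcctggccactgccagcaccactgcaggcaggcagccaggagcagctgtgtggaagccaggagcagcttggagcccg
The following letters were searched on both strands over the 250 bases. The STAT-type motif TTCNNNGAA was found in 7.02% of all 32851 promoters, the IRF-type motif GAAANNGAA in 7.13% and the ETS-type motif GGAAGT in 19.7%. Of the 5 genes, Il7r alone held TTCNNNGAA, as TTCAGGGAA from 142 to 134 bases before its start, and GGAAGT was found in Il7r, where it reads ACTTCC on the printed strand 49 to 44 bases before the start, and in Il18bp. The Il18bp window lay within an annotated exon of one transcript, so only 30 bases around its GGAAGT, at chr7:102018260-102018289 on the minus strand, are printed.
Il18bp: agccagtgttgcGGAAGTgccttcctggct
Il15ra held the GAAANNGAA pattern, as TTCCATTTC on the printed strand 149 to 141 bases before the first of its start sites, and Il2rg and Il21r held none of the 3. The window before the other Il15ra start site, which is not printed, also held none of the 3. The IRF-type motif was first searched with 1 more A at its end, which was found in 2.98% of all promoters and in 0 of the 5 genes, and it was shortened after that result was seen, for a reason of format and not of biology, so the Il15ra match rests on the shorter form. A match describes letters only.

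In the comparison of anti-PD-L1 with IgG, each of the 10 genes had its 2 anti-PD-L1 values above its 2 IgG values, an arrangement seen in 16.5% of all genes tested. The median log2 fold change over the 10 was 1.77, against 0.00021 over all genes. The genes were chosen with earlier results of these data known, so the count is a description. Listed genes reached 100 counts in a library, which Il12rb1 and Il15 did only after anti-PD-L1. At least 1 anti-PD-L1 count of each was thus bound to be above its IgG counts. In whole thyroid, more cells of a type and more RNA per cell cannot be told apart. No gene passed the threshold of an adjusted p of 0.05 over all genes with edgeR's quasi-likelihood test (0 of 16217, or 0.0%), and limma voom also called 0.0%. At an unadjusted edgeR p under 0.05, 6 of the 10 were higher (Il2rg, Il2rb, Il7r, Il10ra, Il12rb1 and Il18bp), against 4.96% of all genes. DESeq2, run as an alternative, called 5 of the 10 higher (Il2rb, Il7r, Il10ra, Il12rb1 and Il18bp), against 2.93% of all genes. Which of the 10 it called changed with the library left out. The edgeR median log2 fold change of the 10 then ran from 1.14 (without IgG replicate 1) to 2.42 (without IgG replicate 2). An exact two-sided permutation test of 2 against 2 libraries cannot go below p = 0.333. The labels do not say how mice were housed, paired or pooled, so the p-values set each difference only against the spread estimated from these samples.

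**Figure D1:**
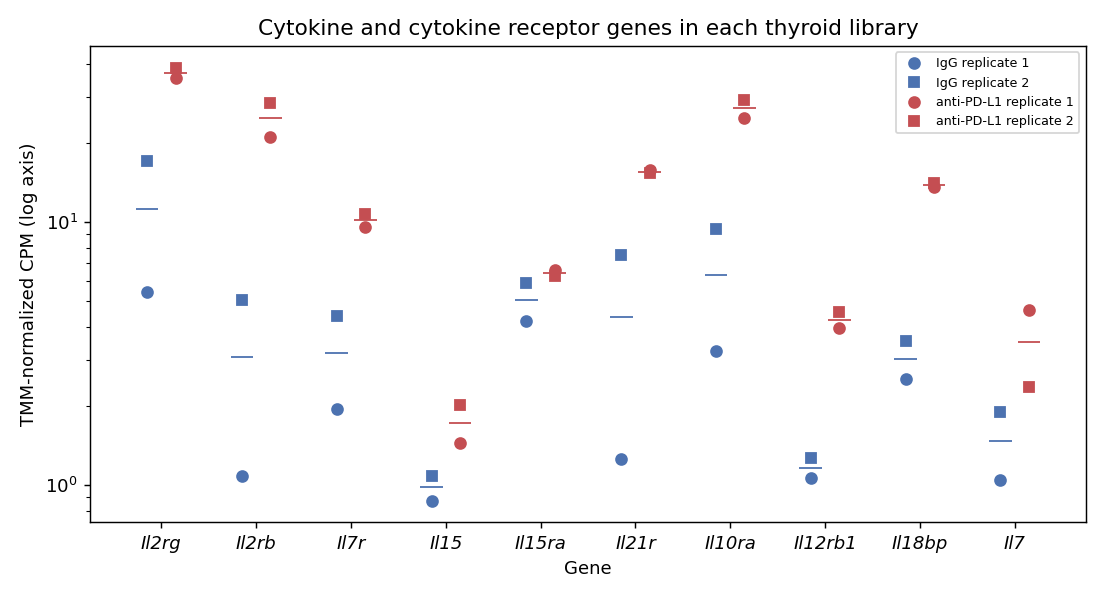
Normalized CPM (log axis) of the 10 genes in each of the 4 libraries, blue for IgG and red for anti-PD-L1, circles for replicate 1 and squares for replicate 2, with a line at each group mean. Red points lie above blue points for every gene, by the smallest margin for Il15ra (6.27 against 5.88 CPM), and the blue points of Il2rg, Il2rb, Il7r, Il21r and Il10ra are far apart.

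Among the receptor chains, the common gamma chain gene Il2rg had the highest level per kilobase of exon in both groups. It had 5.43 and 17.1 CPM after IgG (replicates 1 and 2, the order used throughout) and 35.4 and 38.7 CPM after anti-PD-L1. The anti-PD-L1 libraries were close to each other, while the IgG libraries differed 3.14-fold. The log2 fold change was 1.72 ± 0.58 (SE, n = 2 per group; edgeR adjusted p = 0.702, DESeq2 adjusted p = 0.0795). The gene lies on chromosome X (101264378 to 101268255, minus strand, GRCm38), and without anti-PD-L1 replicate 1, the library low in Xist, its log2 fold change was 1.78. Leaving out an IgG library moved it more, to 1.10 without replicate 1 and 2.77 without replicate 2. Exons of the unlisted gene Gm20489 cover 30.5% of the exonic length of Il2rg on the same strand, so reads of the pair cannot be told apart there.

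Il2rb encodes the beta chain that IL-2 and IL-15 receptors share and is abundant on NK cells and memory CD8 T cells. The gene lies on chromosome 15 from 78479256 to 78495271 and had the largest difference of the 10. Its level was 1.09 and 5.04 CPM after IgG against 21.1 and 28.4 CPM after anti-PD-L1, so that the lower anti-PD-L1 value was 4.19 times the higher IgG value. The log2 fold change was 3.02 ± 0.79 (SE, n = 2 per group; edgeR adjusted p = 0.491, DESeq2 adjusted p = 0.00115), or 8.09-fold. It was 2.28 without IgG replicate 1 and 4.51 without IgG replicate 2. Without anti-PD-L1 replicate 1 it was 3.21. The DESeq2 call was lost only without anti-PD-L1 replicate 2. Relative to the common gamma chain gene within the same library, the ratio of Il2rb to Il2rg CPM was 0.200 and 0.296 after IgG and 0.597 and 0.736 after anti-PD-L1. This ratio compares libraries and not the levels of the 2 genes, and its groups did not overlap.

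Il7r, the IL-7 receptor alpha chain of naive and memory T cells and innate lymphoid cells, had 1.95 and 4.40 CPM after IgG against 9.61 and 10.7 CPM after anti-PD-L1. The fitted log2 fold change was 1.68 ± 0.45 (SE, n = 2 per group; edgeR adjusted p = 0.503, DESeq2 adjusted p = 0.0231). It was 1.19 without IgG replicate 1, 2.38 without IgG replicate 2, 1.76 without anti-PD-L1 replicate 1 and 1.58 without anti-PD-L1 replicate 2, and DESeq2 called Il7r in the fit without IgG replicate 2 but in none of the other 3. Unlike Il2rb, Il7r (chromosome 15, 9505788 to 9530176) kept a like ratio to Il2rg in every library, at 0.359 and 0.258 for IgG and 0.272 and 0.278 for anti-PD-L1, with overlapping groups.

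Il21r encodes the receptor for IL-21, a cytokine of follicular helper T cells that acts on B, T and NK cells. The gene, on chromosome 7 from 125603429 to 125633570, was the one of the 10 with the widest gap between IgG libraries, at 1.26 CPM in replicate 1 and 7.50 CPM in replicate 2, a 5.94-fold ratio, while the anti-PD-L1 libraries had 15.8 and 15.3 CPM. The log2 fold change was 1.83 ± 0.85 (SE, n = 2 per group) and had an edgeR adjusted p of 1.00 and a DESeq2 adjusted p of 0.353. It was 1.03 without IgG replicate 1 and 3.62 without IgG replicate 2, so the size of the difference was set by which IgG library was kept. Without IgG replicate 2, DESeq2 called Il21r and Il2rg as well.

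Il10ra, the ligand-binding chain for the anti-inflammatory cytokine IL-10, had 3.24 and 9.39 CPM after IgG against 25.0 and 29.2 CPM after anti-PD-L1. The fitted difference on the log2 scale was 2.10 ± 0.55 (SE, n = 2 per group; edgeR adjusted p = 0.495, DESeq2 adjusted p = 0.00692). For Il10ra (chromosome 9, 45253837 to 45269149) it ranged from 1.51 without IgG replicate 1 to 3.06 without IgG replicate 2, and DESeq2 no longer called it when IgG replicate 1 or anti-PD-L1 replicate 2 was left out. Il10rb, the broadly expressed partner chain, had 53.4 and 51.1 CPM against 59.8 and 69.9 CPM (edgeR log2 fold change 0.31 ± 0.16, adjusted p = 1.00). The ratio of Il10ra to Il10rb CPM was 0.0607 and 0.184 in the IgG libraries and 0.418 in each anti-PD-L1 library.

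Il12rb1, a chain shared by the receptors for IL-12 and IL-23, was low but differed little within groups. It lies on chromosome 8 from 70808449 to 70821424. Its counts were 85 and 97 after IgG and 291 and 368 after anti-PD-L1, or 1.06 and 1.27 CPM against 3.96 and 4.54 CPM. Its log2 fold change was 1.86 ± 0.25 (SE, n = 2 per group; edgeR adjusted p = 0.190, DESeq2 adjusted p = 1.14e-05). It stayed between 1.72 and 2.00 with each library left out in turn, although DESeq2 no longer called it when IgG replicate 1 or anti-PD-L1 replicate 2 was left out. Il12rb2, the chain that completes the IL-12 receptor, had 1.65 and 2.40 CPM against 1.44 and 2.37 CPM, overlapping groups and a log2 fold change of −0.087 ± 0.383. The ratio of Il12rb1 to Il12rb2 CPM was accordingly 0.644 and 0.530 after IgG against 2.75 and 1.92 after anti-PD-L1. With IgG counts of 85 and 97, under 100, Il12rb1 is listed only through the anti-PD-L1 libraries. That listing favours higher values and ratios in those libraries.

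Il15ra, which presents IL-15 to neighbouring cells and is made by many cell types besides lymphocytes, differed least of the receptor chains (chromosome 2, 11705290 to 11734317). It had 4.21 and 5.88 CPM after IgG and 6.57 and 6.27 CPM after anti-PD-L1. The lowest anti-PD-L1 value exceeded the highest IgG value by a factor of 1.07, less than the 1.40-fold gap between the IgG libraries. On the log2 scale the fold change was 0.35 ± 0.26 (SE, n = 2 per group; edgeR adjusted p = 1.00) and was 0.11 without IgG replicate 1.

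**Figure D2:**
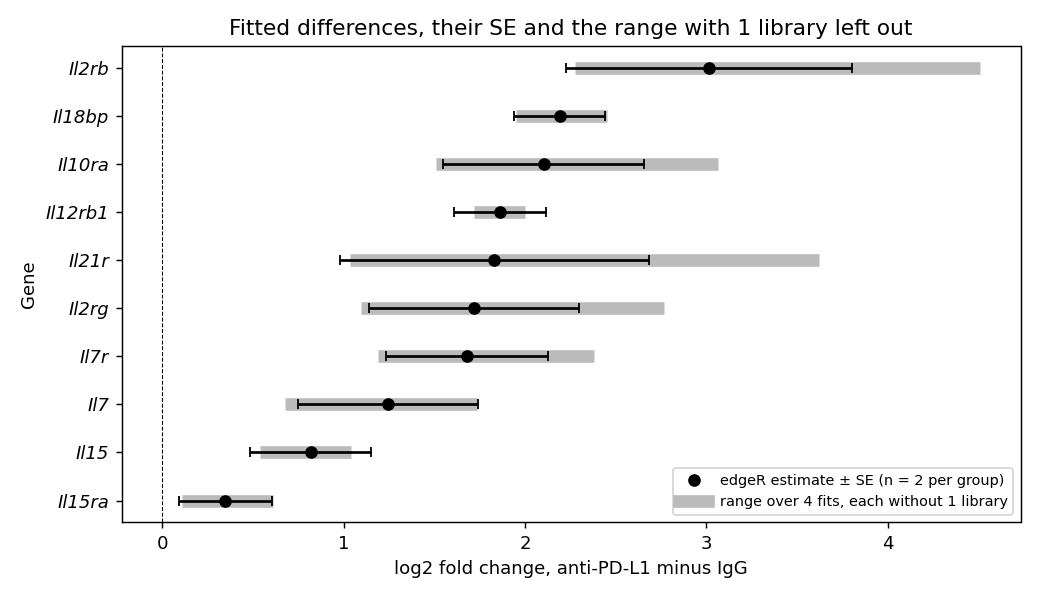
Log2 fold change of anti-PD-L1 minus IgG from edgeR for the 10 genes, with SE bars (n = 2 per group) and grey bars for the range over 4 fits that each leave out 1 library. Il12rb1 and Il18bp have the short grey bars among the larger differences (1.72 to 2.00 and 1.95 to 2.45), whereas that of Il21r runs from 1.03 to 3.62.

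Il15 and Il7, the cytokine genes on chromosome 8 (82331632 to 82403222) and chromosome 3 (7569994 to 7613760), had low levels and smaller differences than the receptor chains other than Il15ra. Il15 had 0.875 and 1.09 CPM after IgG against 1.44 and 2.02 CPM after anti-PD-L1, from 70 to 164 counts per library. With IgG counts of 70 and 83, under 100, it is listed only through the anti-PD-L1 libraries. For Il15 the log2 fold change was 0.82 ± 0.33 (SE, n = 2 per group; edgeR adjusted p = 0.899, DESeq2 adjusted p = 0.948), and it was 0.54 without anti-PD-L1 replicate 2. Il7 had 1.05 and 1.90 CPM after IgG and 4.65 and 2.36 CPM after anti-PD-L1. It was the gene whose anti-PD-L1 libraries differed most, by 1.97-fold, and the higher of them was the library that stood apart. The fitted value, a log2 fold change of 1.25 with an SE of 0.50 (n = 2 per group; edgeR adjusted p = 0.888, DESeq2 adjusted p = 0.510), was 0.67 without that library.

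Il18bp, the secreted decoy for IL-18, had the smallest p of the 10 genes. Its counts were 202 and 269 after IgG and 1000 and 1140 after anti-PD-L1, or 2.53 and 3.53 CPM against 13.6 and 14.1 CPM. Libraries of 1 group differed by at most 1.40-fold, and the lowest anti-PD-L1 value was 3.85 times the highest IgG value. The log2 fold change was 2.19 ± 0.25 (SE, n = 2 per group), or 4.57-fold, with an edgeR adjusted p of 0.170 and a DESeq2 adjusted p of 3.95e-10. It lay between 1.95 and 2.45 with each library left out in turn, and DESeq2 called it in each of those fits. An exon of Numa1 on the opposite strand covers 2.6% of its exonic length (chromosome 7, 102014885 to 102018690). Il18, the cytokine that it binds, had 2.99 and 2.42 CPM against 3.50 and 2.93 CPM, and its groups overlapped (log2 fold change 0.25 ± 0.25). Within a library the ratio of Il18bp to Il18 CPM was 0.845 and 1.46 after IgG and 3.89 and 4.81 after anti-PD-L1.

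Per kilobase of exon, the 10 genes took a different order in the 2 groups. In the IgG libraries the means per kilobase were 4.71 CPM for Il2rg, 1.81 for Il10ra, 1.32 for Il21r, 1.14 for Il15ra, 1.00 for Il18bp, 0.715 for Il2rb, 0.681 for Il7r, 0.435 for Il15, 0.285 for Il12rb1 and 0.261 for Il7. The ranges of neighbours in this order overlapped except for Il15 and Il12rb1, so most of these places are not distinct. In the anti-PD-L1 libraries Il2rg had 15.5 CPM per kilobase, Il10ra 7.75, Il2rb 5.78, Il21r 4.68 and Il18bp 4.57. Il2rb, at 4.93 and 6.63 CPM per kilobase, thus stood above Il15ra, at 1.48 and 1.41, in both of these libraries and below it in both IgG libraries (0.254 and 1.18 against 0.948 and 1.32). Il7r followed with 2.18, Il15ra with 1.44, Il12rb1 with 1.04, Il15 with 0.767 and Il7 with 0.619. After anti-PD-L1, only Il21r with Il18bp and Il15 with Il7 overlapped as neighbours.

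The genes fell into groups by how the IgG libraries compared. Il2rg, Il2rb, Il7r, Il21r and Il10ra were more than 2-fold higher in IgG replicate 2 than in IgG replicate 1, and the other 5 were not. Summed CPM of 5 pan-leukocyte markers (Ptprc, Coro1a, Laptm5, Cd52 and Cd53) was likewise higher in IgG replicate 2 than in IgG replicate 1, with 65.9 and 214 CPM after IgG and 538 and 519 CPM after anti-PD-L1. All 5 were above both IgG values in each anti-PD-L1 library. The same held for all 13 T cell markers (summed CPM 33.2 and 64.0 against 180 and 182), all 8 NK and cytotoxic markers tested (4.30 and 6.41 against 38.5 and 45.2), 7 of 9 macrophage markers (235 and 312 against 880 and 762) and 6 of 7 dendritic cell markers (14.4 and 30.6 against 89.9 and 97.9). Ncr1, Klrd1, Gzma, Gzmb, Prf1, Eomes, Cd247, Clec9a and Batf3 had under 100 counts in both IgG libraries, and listing required 100 in a library. At least 1 anti-PD-L1 count of each was therefore bound to be higher. The part of all these markers in the 10 genes' differences was not tested. All 7 B cell markers overlapped between groups (summed CPM 40.3 and 111 against 139 and 71.2), as did every marker tested of thyroid follicle, squamous epithelium, mucosal gland, parathyroid and muscle. Within groups these sums were uneven. Summed CPM was 10927 and 2885 against 4509 and 46.2 for squamous epithelium and 3681.5 and 16000 against 25583 and 8481 for mucosal gland. For muscle it was 28264 and 38339 against 47570 and 16992, and for parathyroid 3515 and 1201.5 against 3645 and 2670.5. Of 5 plasma cell markers 3 were higher in both anti-PD-L1 libraries (summed CPM 413 and 520 against 1625 and 778). Among them Jchain, the joining chain of IgM and IgA, had 16.4 and 164 CPM against 1142 and 443 CPM (DESeq2 adjusted p = 0.0319, edgeR adjusted p = 0.883), and Mzb1 1.88 and 21.0 CPM against 70.0 and 40.8 CPM. Xbp1, also higher in both, had 198 and 243 CPM against 292 and 261 CPM. Sdc1, at 176 and 83.6 CPM against 103 and 21.7 CPM, and Prdm1 overlapped, with log2 fold changes of −1.06 and 0.11. The median log2 fold change of the 5 plasma cell markers was 0.33. Of 3 lymphoid stroma markers tested, Cxcl13, a chemokine that draws B cells, had 10.1 and 29.1 CPM against 99.7 and 56.7 CPM (DESeq2 adjusted p = 0.0248, edgeR adjusted p = 0.611). The other 2 overlapped, were highest in IgG replicate 2 and had negative log2 fold changes. Cr2 had 1.84 and 11.6 CPM against 6.82 and 3.09 CPM (−0.44), and Glycam1 0.800 and 39.1 CPM against 4.86 and 0.716 CPM (−2.84). Of 6 thymus markers, Rag1, Rag2 and Ptcra were not listed. Foxn1 overlapped, at 4.35 and 3.02 CPM against 3.59 and 3.30 CPM, and the other 2 were higher in both anti-PD-L1 libraries, Themis, which mature T cells also express, at 0.725 and 1.71 CPM against 4.33 and 3.88 CPM (DESeq2 adjusted p = 0.0454, edgeR adjusted p = 0.519) and Dntt at 1.65 and 1.69 CPM against 1.71 and 2.26 CPM. In the remaining lists, 1 of 3 granulocyte markers tested (Csf3r) and 2 of 6 fibroblast markers were higher in both anti-PD-L1 libraries. The other 2 granulocyte markers overlapped, were highest in IgG replicate 2 and had negative log2 fold changes. S100a8 had 0.250 and 1.71 CPM against 0.667 and 0.309 CPM, and S100a9 0.425 and 3.62 CPM against 0.925 and 0.555 CPM. Lower in both anti-PD-L1 libraries were 1 of 5 innate lymphoid and 1 of 5 endothelial markers. The part of these remaining lists in the differences was not tested either. Over all genes tested, 16.5% were higher in both anti-PD-L1 libraries and 13.1% lower in both.

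Set against the leukocyte sum of the same library, the genes separated. Il2rb was 1.65% and 2.35% of the marker sum after IgG and 3.92% and 5.48% after anti-PD-L1, and was the only one of the 10 with higher shares in both anti-PD-L1 libraries. Against the summed T cell markers it was again the only one, at 3.28% and 7.89% against 11.8% and 15.6%. For Il7r, Il21r, Il10ra, Il12rb1 and Il18bp the shares overlapped between groups with either sum. Il10ra, for example, was 4.92% and 4.38% of the leukocyte sum after IgG and 4.64% and 5.63% after anti-PD-L1. Il15ra had lower shares of the leukocyte sum in the anti-PD-L1 libraries, at 6.40% and 2.75% against 1.22% and 1.21%, and so did Il15, Il7 and Il2rg. The Il2rg difference was narrow, at 8.24% and 7.97% against 6.57% and 7.44%, and its shares of the T cell sum overlapped. Against the summed NK and cytotoxic markers, a comparison added last, the Il2rb shares overlapped, at 25.3% and 78.7% after IgG and 54.9% and 62.9% after anti-PD-L1. With that sum 0 of the 10 had higher shares in both anti-PD-L1 libraries, 8 had lower shares in both, and Il2rb and Il21r overlapped. Ncr1, Klrd1, Gzma, Gzmb, Prf1 and Eomes in that sum are listed only through their anti-PD-L1 counts, which favours lower shares in those libraries. The shares are a description and were not tested.

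**Figure D3:**
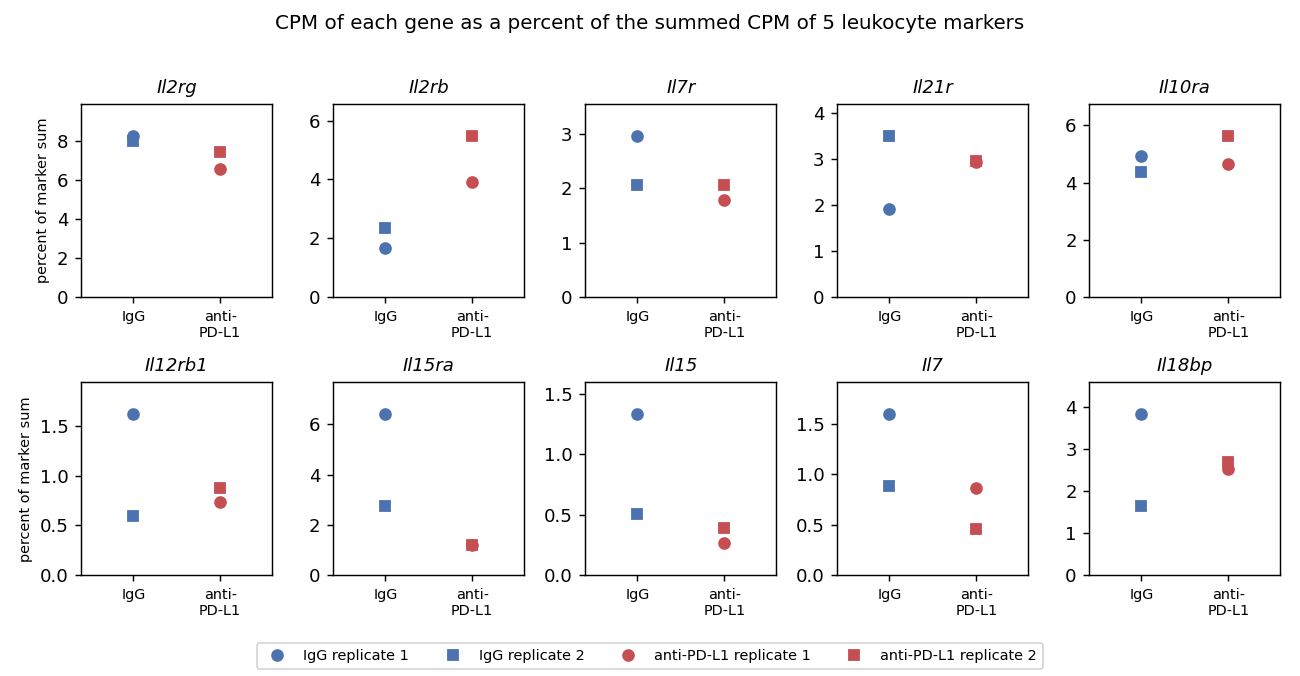
CPM of each of the 10 genes as a percent of the summed CPM of 5 pan-leukocyte markers in the same library, with each panel's axis starting at 0. Il2rb is higher in both anti-PD-L1 libraries (3.92% and 5.48% against 1.65% and 2.35%), Il15ra is lower (1.22% and 1.21% against 6.40% and 2.75%), and Il10ra overlaps.

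By distance between centred log2 CPM profiles over the 4 libraries (0 would be the same profile), the closest pairs among the 10 were Il2rg with Il10ra (0.36), Il2rg with Il7r (0.38) and Il12rb1 with Il18bp (0.41). The most distant pair was Il2rb with Il15ra (3.26). Searching 15155 genes with a mean of at least 1 CPM, the 3 genes nearest to Il7r were Pik3cg, the leukocyte PI3-kinase gamma (0.092), Cd84, a SLAM family receptor (0.10), and Vav1, a guanine nucleotide exchange factor of blood cells (0.11). Pik3cg had 2.84 and 6.49 CPM against 13.6 and 14.5 CPM. Nearest to Il2rg were Arhgap30 (0.17), Nfam1 (0.19) and Batf3 (0.19). The nearest to Il18bp were Gcsam (0.12), Pld4 (0.14) and Amtn (0.15), and to Il15 they were G6pc2 (0.039), Dse (0.054) and Naip2 (0.097). With 4 libraries many genes can share a profile. Batf3, Gcsam and G6pc2, like Il15, had under 100 counts in both IgG libraries and are listed only through the anti-PD-L1 libraries. That listing favours profiles with higher anti-PD-L1 values.

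The other genes of the common gamma chain pathway were described by counts and levels in the same way. Of 23 on a list of ligands, receptor chains, kinases, STAT factors and targets, 19 were tested. Of the 19, 8 had both anti-PD-L1 values above both IgG values (16.5% of all genes) and none had both below (13.1% of all genes). The median log2 fold change of the 19 was 0.21, and edgeR and DESeq2 each called 0. At an unadjusted edgeR p under 0.05, 4 were higher, against 4.96% of all genes. Il2ra, the high-affinity IL-2 receptor alpha chain of regulatory and activated T cells, had 2.46 and 2.48 CPM against 4.19 and 7.48 CPM (edgeR log2 fold change 1.24 ± 0.35, adjusted p = 0.549). Jak3, the kinase bound to the common gamma chain, had 11.2 and 17.4 CPM against 25.3 and 30.2 CPM (edgeR log2 fold change 0.96 ± 0.27). Jak1, which is present in most cells, had 160 and 168 CPM against 178 and 201 CPM. Socs1, a feedback inhibitor of JAK kinases, had 0.488 and 0.735 CPM against 1.63 and 1.72 CPM (edgeR log2 fold change 1.45 ± 0.35). With IgG counts under 100, Socs1 is listed only through the anti-PD-L1 libraries. Crlf2, the TSLP receptor chain related to the common gamma chain, had 6.34 and 6.41 CPM against 15.1 and 9.68 CPM. Stat5a, the main STAT of IL-2, IL-7 and IL-15 signalling together with Stat5b, overlapped between groups, at 29.6 and 28.9 CPM against 24.1 and 36.0 CPM. Il2, Il4, Il9 and Il21 were not listed, so the ligands of several of these receptors have no value here.

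Of 18 genes on a list for IL-12, IL-23, IL-27 and IL-18, 16 were tested, with a median log2 fold change of 0.41. In both anti-PD-L1 libraries 10 were higher (16.5% of all genes) and 1 was lower (13.1% of all genes). edgeR called 0, with 8 higher at an unadjusted p under 0.05, against 4.96% of all genes. DESeq2 called 4 higher, against 2.93% of all genes. The DESeq2 calls were Il12b, Ebi3, Ifng and Tbx21, which are also the genes of smallest edgeR p. Il12b, the p40 subunit shared by IL-12 and IL-23 and hence a ligand of IL-12 receptor beta 1, had 0.663 and 0.854 CPM against 3.06 and 2.84 CPM (edgeR log2 fold change 1.96 ± 0.28, adjusted p = 0.200, DESeq2 adjusted p = 7.30e-05). Ebi3, a subunit of IL-27, had 0.663 and 0.998 CPM against 2.35 and 2.86 CPM. Il12b and Ebi3 had under 100 counts in both IgG libraries and are listed only through the anti-PD-L1 libraries. Ifng had 1.15 and 1.35 CPM against 2.84 and 2.95 CPM (edgeR log2 fold change 1.21 ± 0.25, adjusted p = 0.322), and Tbx21, the gene of the type 1 lymphocyte factor T-bet, 0.926 and 1.97 CPM against 5.33 and 4.78 CPM. Stat4, which IL-12 activates, had 2.64 and 3.82 CPM against 5.42 and 6.94 CPM. The chains of the IL-18 receptor differed from each other in pattern, with Il18r1 at 10.6 and 11.7 CPM against 9.50 and 12.3 CPM and Il18rap at 1.43 and 2.26 CPM against 3.84 and 6.52 CPM. Il23r, the gene with both anti-PD-L1 libraries below, had 1.51 and 1.59 CPM against 1.16 and 1.26 CPM.

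In the list of the IL-10 family, 5 of 11 genes were tested, and Il10rb, described above, was the 1 with higher values. The other 4, Il20ra, Il20rb, Il22ra1 and Ifnlr1, are receptor chains found mainly on epithelial cells, and each had both anti-PD-L1 values below both IgG values. That arrangement was seen in 13.1% of all genes. Il20rb had 15.6 and 8.43 CPM against 6.06 and 1.69 CPM (edgeR log2 fold change −1.63 ± 0.71, adjusted p = 0.957), Il22ra1 3.55 and 5.53 CPM against 2.83 and 1.78 CPM (−0.98 ± 0.38), and Il20ra 3.20 and 1.83 CPM against 1.63 and 1.43 CPM. edgeR and DESeq2 called 0 of the 5, and 0 had an unadjusted edgeR p under 0.05. Summed CPM of 5 squamous keratin genes was 10927 and 2885 after IgG and 4509 and 46.2 after anti-PD-L1, and its part in these values was not tested. Il10 itself was not listed.

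**Figure D4:**
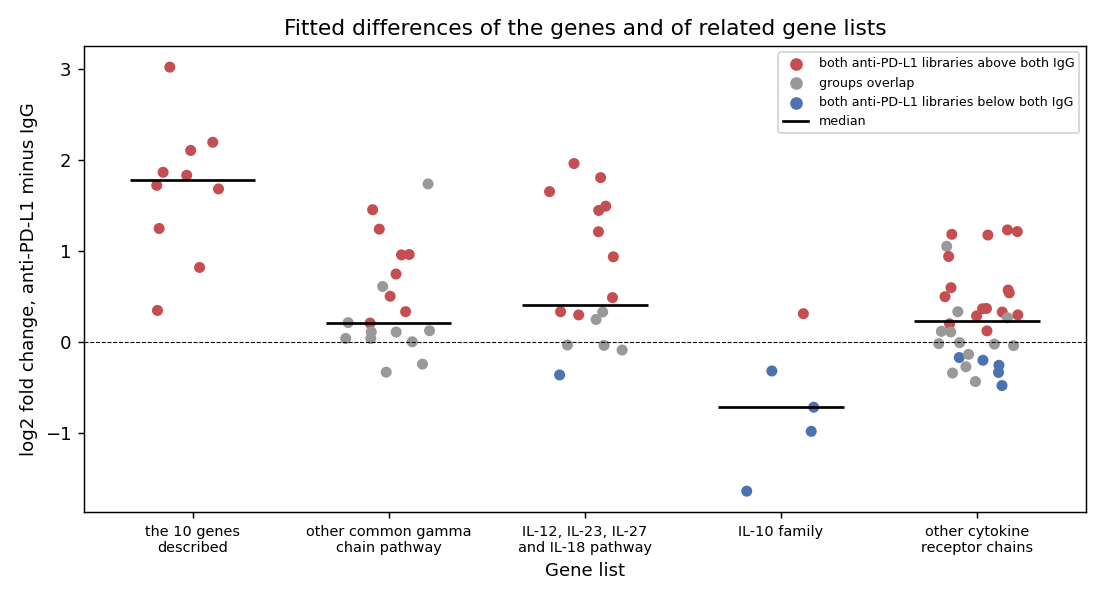
Log2 fold change of anti-PD-L1 minus IgG for the 10 genes and for the tested genes of 4 related lists, 1 point per gene, with a line at each median (1.77, 0.21, 0.41, −0.71 and 0.23 from left to right). Red marks genes with both anti-PD-L1 values above both IgG values, blue the reverse and grey overlapping groups.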

How the data were processed

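Poly(A)-selected RNA of mouse thyroids was sequenced on an Illumina platform, per the labels' protocols. The authors deposited unnormalized expected counts, 1 row per symbol. BWA and the mm10 build are named without a role in the submitters' processing notes, and no counting program, annotation or strand setting is given in these sources. Low genes are absent, since each of the 16218 genes reached a count of at least 100 in a library. A gene under 100 counts in both IgG libraries is therefore listed only through the anti-PD-L1 libraries. Blank cells (13 in 12 genes) were read as 0. Counts ending in 0.5 occur in 3328 genes, among them 3 of the 10 genes described, and were rounded to whole numbers, to the even one; rounding up was run first and was replaced after its output was seen, to follow an earlier analysis of these data.

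Group means were compared with edgeR 4.0.16 in R 4.3.3, using filterByExpr (16217 genes kept), TMM factors, robust dispersions and the two-sided quasi-likelihood F test on group alone, with Benjamini-Hochberg adjustment over all genes and a threshold of 0.05. Each log2 fold change is the anti-PD-L1 level minus the IgG level, and its SE is its size over the square root of F. CPM are TMM-normalized. Exonic lengths come from GENCODE release M21 on GRCm38. DESeq2 1.42.0, limma voom 3.58.1, other scalings and filters, the replicate block and each library left out were alternatives, and DESeq2 with each library left out was chosen after seeing the data. The edgeR, DESeq2 and limma voom fits with 2 libraries per group were also run on simulated counts, with dispersions taken from the real fit. Fits with other scalings, with the replicate block or with a library left out were not. Libraries of a group differed by far more than sampling noise (chi-square over its degrees of freedom was 321 for IgG and 1056 for anti-PD-L1).

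The 10 genes, 4 pathway lists and 18 marker lists were chosen with earlier results of these data known. Genes named were the 10, the 4 of smallest p per pathway list, up to 2 per list with lower values, partner chains and ligands by role, and the 3 nearest profiles to Il2rg, Il7r, Il15 and Il18bp. The motifs, Foxn1, the order per kilobase and the ratios within a library (to partner genes and to the leukocyte, T cell and NK sums) were chosen after values were seen.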

Additional observations from a re-analysis of the deposited data

How the results depend on the processing

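For the 10 genes the direction was higher in anti-PD-L1 under every alternative run, and edgeR and limma voom called 0 of them in each. An adjusted p under 0.10 gave 15 calls over all genes, all higher and none among the 10. DESeq2 called 528 genes, 5 of the 10 among them. With each library left out, edgeR called 0 genes throughout, DESeq2 called 227, 515, 1139 and 785 genes and 2, 7, 4 and 1 of the 10 (leaving out IgG replicates 1 and 2, then anti-PD-L1 replicates 1 and 2), and the median log2 fold change of the 10 ran from 1.14 (without IgG replicate 1) to 2.42 (without IgG replicate 2). With DESeq2 those medians were 1.15 and 2.41. Rounding counts that end in 0.5 up gave a median of 1.77, with 179 in place of 178 genes lower at an unadjusted p under 0.05. Each of the 10 kept its anti-PD-L1 values above its IgG values under each alternative scaling and with a library left out, although fewer libraries make that easier. Other scalings gave medians of 1.75 to 1.80. With the replicate number as a block, edgeR called 0 genes and the median was 1.90. Same-numbered libraries correlated with r = 0.10 in their deviations, across genes, and share only a number. A fit without 1 library leaves a group with a lone sample, assumed to vary like the other group. Every count of the 10 genes was above the floor of 3 counts, and the lowest were the 70 to 164 counts of Il15. With 2 libraries per group there are 2 residual degrees of freedom.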

Other observations

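Among 34 tested genes of a list of other cytokine receptor chains, 16 had both anti-PD-L1 values above both IgG values and 5 both below. Over all genes those shares were 16.5% and 13.1%. The median log2 fold change was 0.23. edgeR called 0, with 6 higher at an unadjusted p under 0.05, against 4.96% of all genes. DESeq2 called 4 higher, against 2.93% of all genes. The 4 that DESeq2 called are all receptors for the colony-stimulating factors that sustain macrophages and granulocytes. Csf2ra, a chain of the GM-CSF receptor, had 6.30 and 6.99 CPM after IgG against 13.6 and 17.6 CPM after anti-PD-L1 (edgeR log2 fold change 1.23 ± 0.21, adjusted p = 0.242). Csf1r, the macrophage CSF receptor, had 29.7 and 36.9 CPM against 63.5 and 87.8 CPM. Csf2rb had 17.7 and 25.1 CPM against 42.3 and 39.8 CPM, and Csf3r, the G-CSF receptor, 2.13 and 3.20 CPM against 6.04 and 5.99 CPM. On the lower side, Cntfr had 16.6 and 17.2 CPM against 14.1 and 10.2 CPM, and Il17rc 18.0 and 13.3 CPM against 12.4 and 12.5 CPM.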
